A study of Homo sapiens with 12 samples.

Results

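Amino acid transporter genes were examined in cells of 2 human pancreatic cancer lines with and without phorbol-12-myristate 13-acetate (PMA). The set was defined by name, as every gene whose symbol starts with SLC1A, SLC3A, SLC6A, SLC7A, SLC36A, SLC38A or SLC43A, and it held 62 of the 19775 genes on the array that have a probe set with a single symbol. Of these 62 genes, 6 carry such a symbol without coding for a transporter: the antisense genes SLC38A2-AS1, SLC38A4-AS1, SLC6A12-AS1, SLC7A11-AS1 and SLC7A14-AS1, and SLC7A6OS, a neighbour of SLC7A6. Nor does every other member carry amino acids, as with SLC43A3 (nucleobases) and SLC6A8 (creatine). In 54 genes the signal lay above the 40th percentile of the array (signal 8.18 to 10.2) on at least 3 of 12 arrays, and these were tested. Of the 54, 6 passed this filter through BxPC-3 alone and 8 through AsPC-1 alone, with fewer than 3 arrays of the other line above the percentile. Such a gene had to be brighter in one line to be tested at all. Its line difference is therefore given as a lower limit, except for SLC38A4 after PMA. The 8 genes not tested (SLC1A6, SLC6A12-AS1, SLC6A15, SLC6A18, SLC6A5, SLC6A7, SLC7A10 and SLC7A13) had no signal above 13.6 on any array.

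BxPC-3 is an established line from a primary pancreatic tumour, and AsPC-1 is an established line from ascites that the series calls metastatic. A difference between them is a difference between these lines, and no other line of either origin was measured. Both were grown in medium with added L-glutamine, kept overnight in 2.5% serum, and left untreated or given 1 µM of PMA, dissolved in DMSO (0.1%), for 4 h, which makes 4 groups of 3 arrays. The sources used here do not state what the untreated cells received in place of PMA. Each array of a group came from another passage, 7, 9 and 11 in BxPC-3 and 8, 10 and 12 in AsPC-1, and the p-values measure the spread between these passages. Replicates 1, 2 and 3 stand for the passages in that order, and values per array follow that order throughout.

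Amino acid transporters are membrane proteins that carry amino acids across the cell surface or the lysosomal membrane. Most SLC38 and SLC6 proteins draw them in along with sodium, SLC1 proteins carry acidic or small neutral amino acids, and most SLC7 proteins exchange amino acids across the membrane. Several SLC7 proteins (SLC7A5, SLC7A6, SLC7A7, SLC7A8 and SLC7A11) reach the surface only when bound to the heavy chain SLC3A2, and SLC7A9 is bound to SLC3A1. In tumour cells these proteins supply glutamine, leucine and cystine, which feed growth signalling through the kinase complex mTORC1 and the synthesis of glutathione. When amino acids run short, the transcription factor ATF4 raises several of these genes. PMA activates protein kinase C and, downstream of it, transcription factors of the AP-1 family.

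Signal is the intensity of 1 probe set per gene on a linear scale, and differences are on the log2(signal + 3) scale, on which the change of a dim gene comes out too small. "Passed the test" means an adjusted p under 0.05 in the limma fit over all 16099 genes. The epithelial character of the lines was checked with 8 ductal markers, all of which lay above the filter on all 12 arrays, with KRT7 at 56.9 to 224 in AsPC-1 and at least 2298 in BxPC-3. The defining leukocyte marker PTPRC was at most 9.86, and CD3E was at most 25.3 in AsPC-1 and 16.9 in BxPC-3. CD14 lay at 20.6 to 64.1 in AsPC-1 and at 9.6 to 22 in BxPC-3. Of 6 fibroblast markers, COL1A2 and PDGFRB were at most 12.7, DCN at most 37.9 and COL1A1 at most 39.6 in AsPC-1 and 91.8 in BxPC-3, and COL3A1 lay at 39.2 to 57.7 in BxPC-3 against at most 11.2 in AsPC-1. The summed markers of fibroblasts (1350 to 3430 in AsPC-1, 145 to 232 in BxPC-3) and of leukocytes (1950 to 2760 in AsPC-1, 26.7 to 44 in BxPC-3) were higher in AsPC-1, mainly through LUM and LYZ respectively. CD14 shared that direction, and COL1A1 and COL3A1 did not. The AsPC-1 PMA array of passage 8 stood apart: it correlated at 0.921 with its group across genes and at 0.964 with the passage 8 untreated array. Results in AsPC-1 that rest on it are given with and without it.

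Untreated BxPC-3 had 11 of 54 tested transporter genes higher and 7 lower than untreated AsPC-1, and after PMA 11 were higher and 6 lower. Over all genes, 16.8% were higher and 15.6% lower in untreated BxPC-3, and 18.3% and 15.2% after PMA, so the share of transporter genes that differed was near that of the array as a whole. In all, 21 genes passed in either condition and 14 passed in both, 9 of them higher and 5 lower in BxPC-3 each time. The median difference over the 54 genes was -0.09 untreated and 0.05 after PMA, against -0.08 and 0.03 over all genes tested. Its sign was not stable: with a stricter filter on dim genes it was 0.41 untreated (0.00 over all genes) and 0.19 after PMA, and after PMA it was -0.05 without the AsPC-1 PMA array of passage 8. Of the genes that passed between lines in either condition, 6 had passed the filter through a single line. The untreated and PMA comparisons use different arrays. The fibroblast and leukocyte marker sums given above also differ between the lines, and their part in these differences was not tested. In RNA from whole cultures, fewer cells of a type and less RNA per cell cannot be told apart.

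**Figure D1:**
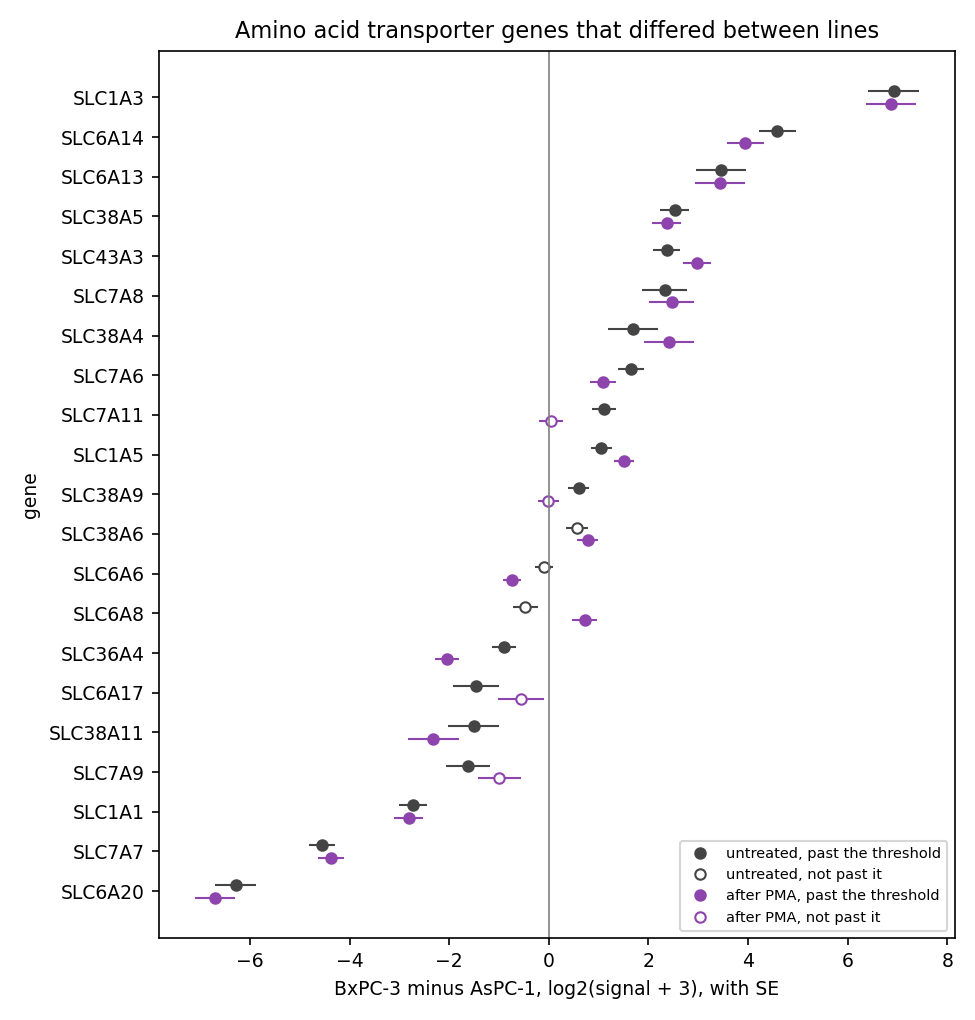
Difference between the lines (BxPC-3 minus AsPC-1, log2(signal + 3), with the SE) for the 21 transporter genes that passed the test untreated (grey) or after PMA (purple). Filled points passed the test, and SLC7A7, above the 40th percentile on all arrays of both lines, lies at -4.56 untreated. The sizes plotted for SLC1A3, SLC6A20, SLC6A14, SLC6A13, SLC38A4 and SLC38A11 depend on the pseudocount, since one line was near the bottom of the scale.

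The carriers of acidic amino acids were divided between the lines. SLC1A3 (EAAT1), a sodium-driven carrier of glutamate and aspartate, had signals of 672, 683 and 1128 in untreated BxPC-3 and 1.51, 13.4 and 0.979 in untreated AsPC-1. After PMA it had 779, 1098 and 791 in BxPC-3 and 1.59, 11 and 3.75 in AsPC-1. In AsPC-1 only 2 of 6 arrays were above the 40th percentile, so the size has no exact value. Each lower signal was raised to the 40th percentile of its array, which is not a detection limit. BxPC-3 was then at least 77.6-fold higher untreated and at least 93.3-fold higher after PMA. Lower limits of other genes were made in the same way. They are given without a p-value, because the test used the unraised signals and the filter had already required a brighter line. SLC1A1 (EAAT3), which carries glutamate, aspartate and cysteine, ran the other way, with 264, 574 and 455 in untreated AsPC-1 against 47.5, 67.2 and 66.2 in untreated BxPC-3. PMA-treated cells had 394, 256 and 339.9 in AsPC-1 and 49.8, 43.8 and 37.7 in BxPC-3. The lowest AsPC-1 array was several times the highest BxPC-3 array, and the difference was -2.72 ± 0.28 (SE, adjusted p = 5.95e-06) and -2.82 ± 0.28 after PMA.

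Among the neutral amino acid carriers of SLC1, the glutamine transporter SLC1A5 (ASCT2) had signals of 421, 411 and 376 in untreated BxPC-3 and 253, 193 and 146 in untreated AsPC-1. It was higher in BxPC-3 by 1.05 ± 0.21 (SE, adjusted p = 0.00149) untreated and by 1.51 ± 0.21 (adjusted p = 7.96e-05) after PMA. For SLC1A4 (ASCT1), a carrier of serine and alanine, the difference was 0.75 ± 0.36 (SE, adjusted p = 0.135) on a dim probe set that can pick up unrelated transcripts.

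The sodium- and chloride-dependent SLC6 family held contrasts in both directions. SLC6A20, which carries proline and other imino acids, had 392, 508 and 493 in untreated AsPC-1 and 0.229, 9.49 and 2.15 in untreated BxPC-3, and 539.7, 377 and 442 against 0.817, 2.8 and 0.691 after PMA. In BxPC-3 a single array of 6 was above the 40th percentile. AsPC-1 was at least 52-fold higher untreated and at least 48.9-fold higher after PMA. SLC6A14 (ATB0,+), which takes up neutral and cationic amino acids, ran the other way. Its signals were 139, 139.9 and 154 in untreated BxPC-3 and 5.39, 1.51 and 3.14 in untreated AsPC-1, and 133, 153 and 166 and 2.12, 11.5 and 10.3 after PMA. The lines did not overlap, and in AsPC-1 only 2 of 6 arrays were above the 40th percentile, both of them treated. BxPC-3 was at least 15.6-fold higher untreated and at least 15.1-fold higher after PMA. SLC6A13 (GAT2), a carrier of GABA and taurine, was also higher in BxPC-3 on its brightest probe set, at least 5.56-fold untreated and at least 8.83-fold after PMA. That probe set can hit unrelated transcripts, and on the gene's other probe set the untreated difference was -0.70 (adjusted p = 0.249) and the one after PMA 1.03 (adjusted p = 0.0896).

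The SLC7 chains that pair with SLC3A2 were divided between the lines. SLC7A7 (y+LAT1), which exports cationic amino acids in exchange for neutral ones, had 451, 788 and 705 in untreated AsPC-1 and 26.3, 19.6 and 26.2 in untreated BxPC-3. After PMA it had 463, 761 and 788 in AsPC-1 and 29.1, 29.6 and 26.7 in BxPC-3. No arrays of the lines overlapped, and the difference was -4.56 ± 0.26 (SE, adjusted p = 2.14e-08) untreated and -4.38 ± 0.26 after PMA. SLC7A6 (y+LAT2), of the same transport system, was higher in BxPC-3 instead, at 408, 368 and 503 against 167, 89.8 and 155 untreated, a difference of 1.65 ± 0.27 (SE, adjusted p = 0.000297), and 1.09 ± 0.27 after PMA.

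SLC7A8 (LAT2), an exchanger of neutral amino acids, had 109, 102 and 70 in untreated BxPC-3 and 27.1, 5.61 and 23.2 in untreated AsPC-1. It was higher in BxPC-3 by 2.33 ± 0.45 (SE, adjusted p = 0.00118) untreated and by 2.46 ± 0.45 after PMA. The heavy chain SLC3A2 (CD98hc) did not follow either pattern: it had 208, 218 and 175 in untreated BxPC-3 and 167, 281 and 201 in untreated AsPC-1. Those ranges overlapped, and the difference was -0.08 ± 0.28 (SE, adjusted p = 0.853). For the cystine and glutamate exchanger SLC7A11 (xCT), BxPC-3 was higher by 1.11 ± 0.24 (SE, adjusted p = 0.00289) untreated, while after PMA the difference was 0.04 ± 0.24 (SE, adjusted p = 0.916) and did not pass.

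In the SLC38 family the glutamine and asparagine carrier SLC38A5 (SNAT5) had 188, 177 and 132 in untreated BxPC-3 and 37.5, 14.4 and 31.1 in untreated AsPC-1. The difference was 2.53 ± 0.29 (SE, adjusted p = 1.58e-05) untreated and 2.36 ± 0.29 after PMA. SLC38A4 (SNAT4), a carrier of neutral amino acids, was dim in both lines, with 35.7, 35.4 and 13.4 against 4.59, 8.92 and 4.98 untreated. With 0 of 6 AsPC-1 arrays above the 40th percentile, BxPC-3 was at least 2.78-fold higher untreated. After PMA the raised signals gave 2.39-fold. This is no lower limit, since only 2 of 3 BxPC-3 arrays were above the percentile and the other was raised too. The untreated call was lost in 4 of the alternatives that left out an array. SLC43A3, a member of the SLC43 family that carries nucleobases, had 81.6, 104 and 74.1 against 11.5, 13.9 and 17.8, with differences of 2.36 ± 0.27 (SE, adjusted p = 1.54e-05) untreated and 2.97 ± 0.27 after PMA. SLC36A4 was lower in BxPC-3 in both conditions. SLC38A11, which passed the filter through AsPC-1 alone, was at least 2.62-fold higher in AsPC-1 untreated and at least 2.64-fold after PMA. SLC38A9, SLC7A11, SLC6A17 and SLC7A9 passed only untreated, and SLC38A6, SLC6A6 and SLC6A8 only after PMA. Whether a line difference changed with PMA is the difference of the PMA responses, given further on.

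With all 12 arrays, 3 transporter genes passed the test for PMA, all of the SLC38 family. In BxPC-3, 1 of 54 genes rose (SLC38A1) and 1 fell (SLC38A9), where 2.52% of all genes rose and 3.3% fell. In AsPC-1, 2 of 54 rose (SLC38A1 and SLC38A2) and 0 fell, where 1.24% of all genes rose and 0.721% fell. At an unadjusted p under 0.05 the counts were 9 in BxPC-3 and 5 in AsPC-1, where 3361 and 2657 of all 16099 genes were. Without the AsPC-1 PMA array of passage 8, 4 rose and 2 fell in BxPC-3, and 8 passed upward and 1 downward in AsPC-1, 2 of the 8 at signals too dim to read, as described further on. Of all 16099 genes in that fit, 917 rose and 1477 fell in BxPC-3, and 981 rose and 2166 fell in AsPC-1. The median change over the 54 genes was 0.22 in BxPC-3 and 0.09 in AsPC-1, against 0.00 and -0.10 over all genes. Leaving out single arrays took it from 0.22 to 0.095 in BxPC-3 (without untreated replicate 2), and in AsPC-1 to 0.0025 (without untreated replicate 1) or 0.25 (without PMA replicate 1). In BxPC-3 the ACTB control's 3'/5' ratio, a sign of RNA length, moved with treatment (2.56, 2.95 and 4.14 untreated, 1.84, 1.99 and 2.02 after PMA), and its part in the results was not tested.

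SLC38A1 (SNAT1), a sodium-driven importer of glutamine and other small neutral amino acids, was the transporter gene that rose in both lines. In BxPC-3 it read 2396, 2267 and 2184 without PMA and 3053, 3557 and 2819 with it. In AsPC-1 it read 1903, 1800.1 and 2016 without PMA and 2503, 2885 and 2959 with it. Every treated array lay above every untreated array of its line, and the change was 0.46 ± 0.12 (SE, adjusted p = 0.0414) in BxPC-3 and 0.54 ± 0.12 (SE, adjusted p = 0.0381) in AsPC-1. Both calls sat close to the threshold and were lost in 15 (BxPC-3) and 16 (AsPC-1) of 24 alternative settings.

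Its probe sets did not all move alike. The one used is the brightest of 4. The next brightest, which can hit several transcripts of a family, had 1378, 1021 and 1228 in untreated BxPC-3 and 836, 907 and 671 after PMA, so that every treated array was below every untreated one. In AsPC-1 the same probe set had 680.3, 2724 and 3014 untreated and 811, 4691 and 3879 after PMA, with both passage 8 arrays far below the rest. With the mean of the 4 probe sets the change was 0.04 in BxPC-3 (adjusted p = 0.951) and 0.44 in AsPC-1 (adjusted p = 0.37).

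SLC38A2 (SNAT2), the neighbouring gene on chromosome 12 and a carrier of the same amino acids, is the family member best known for rising when cells lack amino acids. Its signals were 3903, 4281 and 3588 in untreated AsPC-1 and 5203, 5798 and 6175 after PMA. In BxPC-3 they were 4014, 4682 and 4112 and 5292, 6611 and 5099. Treated arrays lay above untreated ones in both lines. The change was 0.54 ± 0.12 (SE, adjusted p = 0.0417) in AsPC-1, and in BxPC-3, where it missed the threshold, 0.40 ± 0.12 (SE, adjusted p = 0.0754). The gene's other probe sets (3 in all) had changes of the same sign in both lines. All 3, the one used included, are of kinds that can also hit other transcripts. In BxPC-3 the gene passed once passages were paired as blocks (adjusted p = 0.0338). The AsPC-1 call was lost in 16 of 24 alternative settings.

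SLC38A9 sits in the lysosomal membrane, where it reports arginine to mTORC1 and lets other amino acids out. In BxPC-3 it read 262, 261 and 265 without PMA and 166, 135 and 158 with it. The untreated arrays were almost level and all treated arrays lay below them, a change of -0.77 ± 0.21 (SE, adjusted p = 0.0469) that lost its call in 12 of 24 alternative settings. The second, dim probe set had a difference of -2.28 in the same line, with no test. In AsPC-1 the gene read 149.7, 173 and 199 without PMA and 205, 133 and 133 with it, where the groups overlapped and the change was -0.17 ± 0.21 (SE, adjusted p = 0.756). In untreated cells BxPC-3 was higher by 0.60 ± 0.21 (SE, adjusted p = 0.0425), and after PMA the difference was -0.01 ± 0.21.

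**Figure D2:**
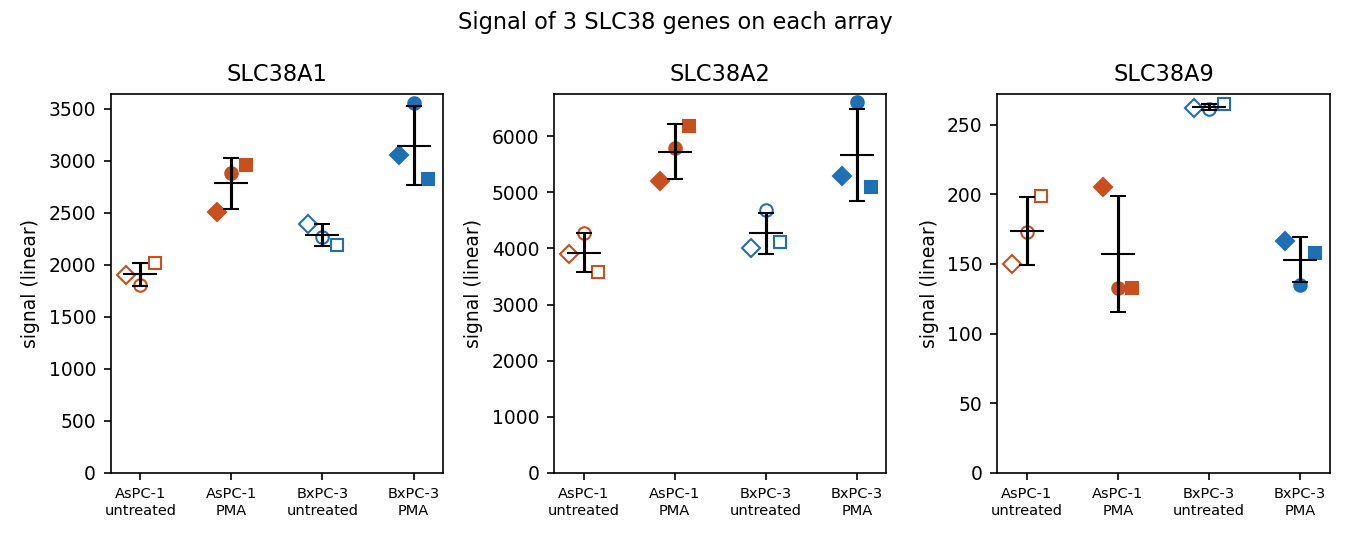
Signal (linear scale) of SLC38A1, SLC38A2 and SLC38A9 on each of the 12 arrays, with open symbols for untreated and filled symbols for PMA arrays, symbol shapes for replicates 1 (diamond), 2 (circle) and 3 (square), and the mean with the SD (n = 3) of each group in black. For SLC38A1 and SLC38A2 all PMA arrays lie above the untreated arrays of the same line, and for SLC38A9 the BxPC-3 PMA arrays lie between 135 and 166, below the untreated arrays at 261 to 265.

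The start regions of these 3 genes and of the heterodimer partners SLC3A2 and SLC7A5 are shown because PMA acts through AP-1 factors and amino acid shortage through ATF4. They are RefSeq windows (GRCh38.p14) from 250 bases before to 50 bases after a gene start, 300 bases each, printed 5′ to 3′ on the strand of the gene. Capitals mark matches to the AP-1 motif TGANTCA and to the C/EBP-ATF motif TGATGNAA, searched on both strands. Where a gene has several windows (2 for SLC38A1, 3 each for SLC38A9 and SLC3A2), the one that holds a match is shown.
SLC38A1, chr12:46266467-46266766, minus strand: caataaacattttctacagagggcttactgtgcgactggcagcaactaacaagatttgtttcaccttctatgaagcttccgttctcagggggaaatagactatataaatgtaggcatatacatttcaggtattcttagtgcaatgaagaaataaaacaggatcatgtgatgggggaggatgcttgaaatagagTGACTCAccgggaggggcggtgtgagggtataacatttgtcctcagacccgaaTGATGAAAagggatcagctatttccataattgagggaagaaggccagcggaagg
SLC38A2, chr12:46372724-46373023, minus strand: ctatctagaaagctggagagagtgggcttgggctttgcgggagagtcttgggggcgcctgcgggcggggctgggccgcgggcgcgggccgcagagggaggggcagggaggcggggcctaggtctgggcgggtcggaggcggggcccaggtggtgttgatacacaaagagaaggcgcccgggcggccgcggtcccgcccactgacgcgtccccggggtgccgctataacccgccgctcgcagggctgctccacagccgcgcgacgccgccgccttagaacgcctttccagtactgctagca
SLC38A9, chr5:55693004-55693303, minus strand: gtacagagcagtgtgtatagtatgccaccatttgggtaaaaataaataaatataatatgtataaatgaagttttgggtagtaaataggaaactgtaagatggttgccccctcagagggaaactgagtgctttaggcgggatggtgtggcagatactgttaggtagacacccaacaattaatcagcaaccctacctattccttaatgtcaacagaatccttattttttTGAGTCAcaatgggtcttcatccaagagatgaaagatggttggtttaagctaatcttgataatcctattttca
SLC3A2, chr11:62881449-62881748, plus strand: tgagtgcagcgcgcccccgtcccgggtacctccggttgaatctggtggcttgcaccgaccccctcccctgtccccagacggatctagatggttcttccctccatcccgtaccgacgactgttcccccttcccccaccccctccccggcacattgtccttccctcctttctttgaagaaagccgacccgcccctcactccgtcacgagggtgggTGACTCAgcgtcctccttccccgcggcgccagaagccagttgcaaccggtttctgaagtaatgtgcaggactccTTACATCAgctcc
SLC7A5, chr16:87869458-87869757, minus strand: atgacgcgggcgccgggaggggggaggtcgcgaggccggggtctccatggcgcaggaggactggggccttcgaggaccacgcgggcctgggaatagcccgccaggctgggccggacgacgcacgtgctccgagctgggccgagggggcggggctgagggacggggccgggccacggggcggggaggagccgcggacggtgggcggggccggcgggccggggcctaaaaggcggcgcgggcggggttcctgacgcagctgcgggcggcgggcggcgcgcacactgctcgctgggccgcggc

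SLC38A1 held TGACTCA, starting 57 bases before the gene start, and TGATGAAA, starting 4 bases before it. SLC38A9 held TGAGTCA from 23 bases before the start. SLC3A2 held TGACTCA from 37 bases before it and TTACATCA, the C/EBP-ATF motif on the other strand, at base 38 after it. The windows of SLC38A2 and SLC7A5 held neither. SLC38A1, which rose in BxPC-3, and SLC38A9, which fell there, thus both had an AP-1 match. The matches in a window did not overlap. Of the 62 genes 47 had a window, 70 windows in all. The AP-1 motif was in 12 of these 70 windows (17.1%, 11 genes) against 2707 of all 35116 windows (7.71%). The C/EBP-ATF motif was in 6 (8.57%, 6 genes) against 1270 (3.62%). A match is a stretch of letters and was not tested for binding.

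Other carriers of glutamine, leucine and cystine did not pass in either line, with their values as follows. SLC1A5 had 506, 678 and 551 in PMA-treated BxPC-3, all above the untreated values given earlier, a change of 0.51 ± 0.21 (SE, adjusted p = 0.179), and 0.05 ± 0.21 (SE, adjusted p = 0.93) in AsPC-1. The change of SLC1A4 was -0.27 ± 0.36 (SE, adjusted p = 0.74) in BxPC-3 and 0.20 ± 0.36 (SE, adjusted p = 0.845) in AsPC-1, and its 5 probe sets did not share a sign. SLC3A2 had 272, 429 and 308 after PMA in BxPC-3, above all untreated arrays, a change of 0.72 ± 0.28 (SE, adjusted p = 0.15). In AsPC-1, with 178, 319 and 340.2 after PMA, the groups overlapped and the change was 0.34 ± 0.28 (SE, adjusted p = 0.591). SLC3A2 passed in BxPC-3 once passages were paired (adjusted p = 0.043).

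SLC7A5 (LAT1), the leucine importer that SLC3A2 carries to the surface, had 115, 182 and 266 in untreated AsPC-1 and 147, 773 and 720.5 after PMA. Passages 10 and 12 were far higher with PMA than without, while passage 8 stayed low either way, and the change was 1.28 ± 0.50 (SE, adjusted p = 0.21). In BxPC-3 it read 486, 484 and 408 without PMA and 400.1, 293 and 451 with it, overlapping, with a change of -0.28 ± 0.50 (SE, adjusted p = 0.807). Its only probe set is of a kind that can hit several related transcripts, and the gene has near-identical pseudogene copies.

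SLC7A11, which imports the cystine used for glutathione, had 633, 1278 and 1231 in untreated AsPC-1 and 1485, 2163 and 2078 after PMA. All treated arrays were above the untreated ones, and the change was 0.91 ± 0.24 (SE, adjusted p = 0.0763). In BxPC-3, with 1921, 2617 and 2011 untreated and 2084, 1796 and 1947 after PMA, the groups overlapped and the change was -0.16 ± 0.24 (SE, adjusted p = 0.778). SLC7A1 (CAT1), the importer of arginine and lysine, had differences of 0.28 ± 0.32 in BxPC-3 (adjusted p = 0.695) and 0.35 ± 0.32 in AsPC-1 (adjusted p = 0.642). In SLC7A8 the values in BxPC-3 and AsPC-1 were 0.72 ± 0.45 (SE, adjusted p = 0.399) and 0.58 ± 0.45 (SE, adjusted p = 0.573), in SLC6A14 0.06 ± 0.37 (SE, adjusted p = 0.957) and 0.70 ± 0.37 (SE, adjusted p = 0.38), and in the leucine carrier SLC43A1 (LAT3) 0.62 ± 0.31 (SE, adjusted p = 0.285) and 0.46 ± 0.31 (SE, adjusted p = 0.513).

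The AsPC-1 results depended on the passage 8 PMA array. Without it, 9 genes passed in AsPC-1, where 19.5% of all genes did: SLC7A5 rose by 2.05 ± 0.27 (SE, adjusted p = 0.000149), SLC7A11 by 1.08 ± 0.24 (SE, adjusted p = 0.00624) and SLC7A1 by 0.79 ± 0.23 (SE, adjusted p = 0.0286). That fit keeps the untreated array of passage 8, in which each of these genes read lowest of the untreated AsPC-1 arrays. For SLC7A1 the value lies above its change within each passage (0.13, 0.58 and 0.36). In the same fit SLC38A1, SLC38A2 and SLC36A4 also rose, and SLC38A10, a transporter of the family found inside cells, fell. The other 2 that passed, SLC6A13 and SLC6A14, had AsPC-1 signals around the 40th percentile (1 and 2 of 6 arrays above it) and were tested because they are bright in BxPC-3, so no change is read from them. On the other probe set of SLC6A13 the AsPC-1 value was -0.93. In BxPC-3, whose own arrays are then the same but share a smaller estimate of spread, 6 genes passed (14.9% of all genes): SLC38A1, SLC38A2, SLC3A2 and the creatine transporter SLC6A8 rose, and SLC38A9 and SLC7A6OS fell.

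With the passage as a block, 4 genes passed in AsPC-1 (5.62% of all genes) and 5 in BxPC-3 (10.2%). In AsPC-1 these were SLC38A1, SLC38A2, SLC7A11 (adjusted p = 0.00896) and SLC7A5 (adjusted p = 0.0299), all rising. In BxPC-3 they were SLC38A1, SLC38A2 and SLC3A2, rising, and SLC38A9 and SLC7A6OS, falling. Without either passage 8 array, 10 genes passed in AsPC-1 (21.4% of all genes) and 10 in BxPC-3 (23.4%), an alternative chosen after seeing the data. In AsPC-1 the changes were then 1.75 for SLC7A5, 0.76 for SLC7A11 and 0.47 for SLC7A1.

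**Figure D3:**
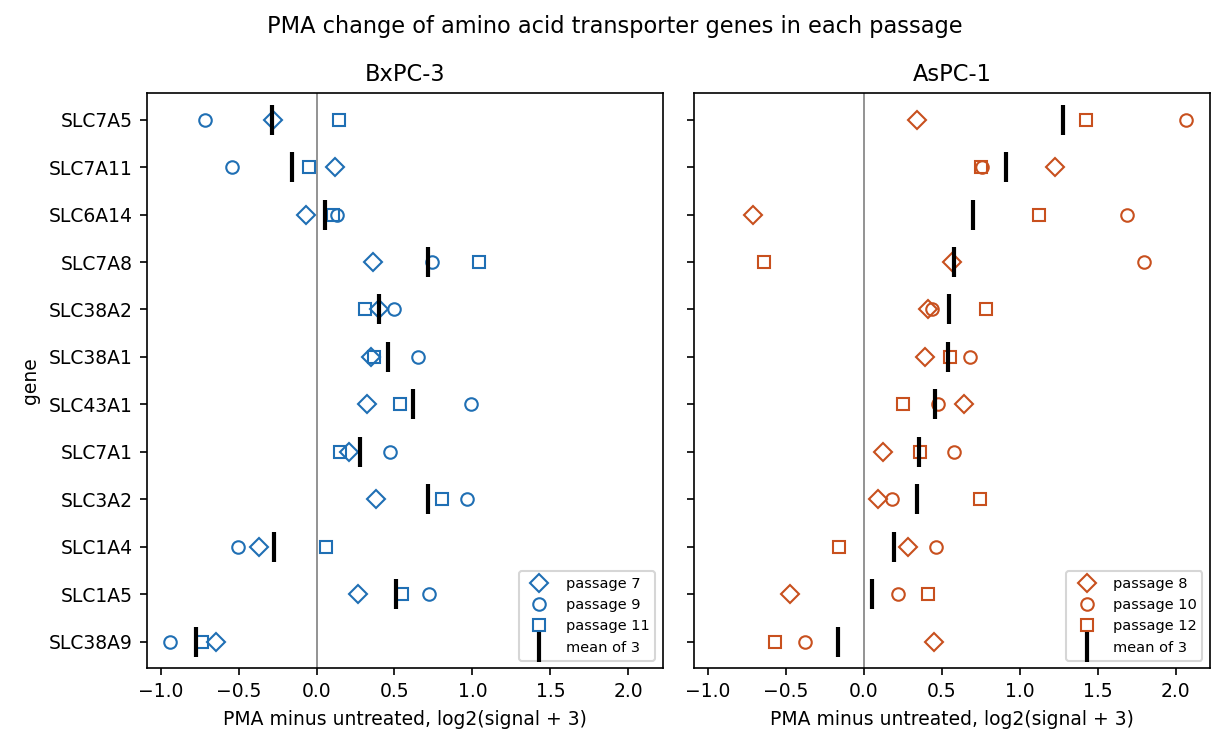
PMA minus untreated difference, log2(signal + 3), of 12 transporter genes in each passage of BxPC-3 (left) and AsPC-1 (right), with symbols for the passages and a black bar for the mean of 3. SLC7A5 in AsPC-1 lies at 0.34 in passage 8 and at 2.07 and 1.43 in passages 10 and 12, while SLC38A1 and SLC38A2 lie above 0 in all 6 passages.

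Within single passages of AsPC-1 there is no test. The gene with the largest difference was, in passage 8, SLC38A3 (SNAT3), a glutamine carrier, at -2.64, from a dim probe set that read 29.1, 2.9 and 16.6 in untreated AsPC-1 and 2.17, 4.26 and 24.7 in treated cells. In passage 10 it was SLC7A5 at 2.07, and in passage 12 SLC6A13 at 2.15, whose signals around the 40th percentile were 0.659, 5.36 and 0.98 without PMA and 0.437, 8.59 and 14.7 with it. The median change of the 54 genes was 0.03, 0.02 and 0.19 in passages 8, 10 and 12, against -0.04, -0.13 and -0.09 over all genes tested. Over 2-fold higher with PMA were 4, 7 and 6 genes, and over 2-fold lower 3, 4 and 1. Of all genes, 5.14%, 8.77% and 9.22% were higher and 7.27%, 11.1% and 11.7% lower by that much. SLC38A1 was at 0.40, 0.68 and 0.55, and SLC38A2 at 0.41, 0.44 and 0.78.

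No transporter gene differed in its PMA response between the lines in limma's fit (0 of 54 at an adjusted p under 0.05), where 0.491% of all genes did. At an unadjusted p under 0.05 it was 5 of 54, where 1434 of all 16099 genes were. Taken as BxPC-3 minus AsPC-1, the difference of the changes was -1.56 ± 0.70 (SE, adjusted p = 0.551) for SLC7A5, and for SLC7A11 it was -1.07 ± 0.34 (SE, adjusted p = 0.32). Without the passage 8 PMA array 3 genes passed, where 4.43% of all genes did: SLC7A5 at -2.34 ± 0.37 (SE, adjusted p = 0.00285), SLC7A11 at -1.24 ± 0.33 (SE, adjusted p = 0.0493) and SLC6A8 at 0.85 ± 0.22 (SE, adjusted p = 0.0425). Without either passage 8 array 4 passed, where 7.37% of all genes did: these 3 and SLC6A14, whose AsPC-1 signals are too dim to read a response from. SLC7A5 was then at -2.03 ± 0.26 (SE, adjusted p = 0.000375). The value was -0.09 ± 0.17 (SE, adjusted p = 0.935) for SLC38A1, -0.14 ± 0.17 (SE, adjusted p = 0.887) for SLC38A2 and -0.61 ± 0.30 (SE, adjusted p = 0.594) for SLC38A9, none of which passed.

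Several transporter genes of AsPC-1 had another level in passage 8 than in passages 10 and 12, with and without PMA. Passage 8 was singled out after its values were seen, so the following is a description with no test. Both passage 8 arrays lay below all arrays of passages 10 and 12 in 15 of 54 genes and above them in 6, where 13.1% of all genes lay below and 22.7% above. The median of passage 8 minus passages 10 and 12 was -0.28 over the 54 genes and 0.11 over all genes. The 15 were SLC7A5, SLC6A13, SLC7A2, SLC7A1, SLC7A9, SLC38A12, SLC1A4, SLC6A2, SLC7A14, SLC7A7, SLC6A11, SLC7A3, SLC3A2, SLC36A1 and SLC7A14-AS1. The 6 were SLC38A6, SLC7A6, SLC38A7, SLC7A6OS, SLC7A8 and SLC38A10. Some of the 15 were dim in AsPC-1, among them SLC6A13 (0.437 to 14.7), SLC7A2 (1.22 to 12.7) and SLC7A14-AS1 (5.41 to 11.96). SLC6A2 (4.7 to 18.1), SLC7A14 (8.98 to 23.5), SLC6A11 (8.54 to 27.2) and SLC7A3 (11.5 to 23.8) were dim there too. No lower level is read from any of these. In AsPC-1, SLC7A2 and SLC7A14-AS1 exceeded the filter's percentile only in passages 10 and 12. Both passed the filter through this line, so their place below was partly set by the filter. SLC6A2 and SLC7A14 also passed it through AsPC-1 alone, and in both the untreated passage 8 array did not exceed the percentile.

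The arginine importer SLC7A1 had 614, 1193 and 1236 in untreated AsPC-1 and 671, 1782 and 1585 after PMA. Passage 8 was at about the same level with and without PMA, and its mean lay -1.15 from that of the other passages. In BxPC-3 the gene had 1619, 1621 and 1757 untreated, with no array as low. The same order held in SLC7A5 (-1.62), SLC1A4 (-1.03), SLC7A9 (-1.08), which transports cystine with SLC3A1, SLC7A7 (-0.73) and SLC3A2 (-0.69), while SLC38A10 lay 1.06 higher in passage 8, at 207 untreated and 148 after PMA.

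**Figure D4:**
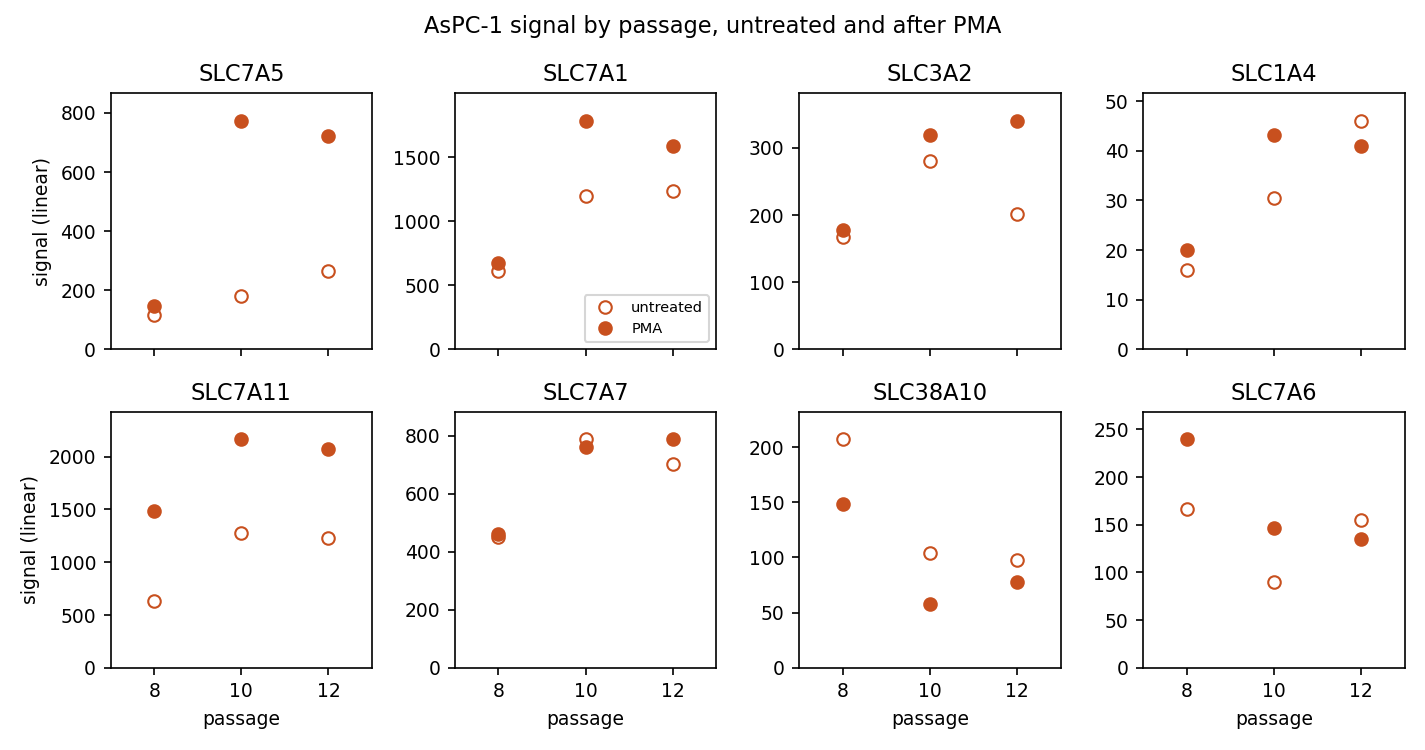
Signal (linear scale) in AsPC-1 by passage for 8 transporter genes, with open circles for the untreated and filled circles for the PMA array of a passage. In SLC7A5, SLC7A1, SLC3A2, SLC1A4 and SLC7A7 both passage 8 circles are the lowest of the panel, and in SLC38A10 they are the highest.

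Of the other gene lists, some were placed the same way in passage 8 and some were not. Of 29 tested genes, chosen as ATF4 targets and parts of its pathway, 9 lay below and 3 above in passage 8, and the median of the difference was -0.33. Of 23 enzymes of glutamine, glutathione and the urea cycle, 8 lay below and 3 above, with a median of -0.20. Of 21 further amino acid and peptide transporters 3 lay below and 6 above (median -0.05), and of 32 mTORC1 sensing genes 5 lay below and 11 above (median 0.20). Asparagine synthetase ASNS, a target of ATF4, had 607, 845 and 2416 in untreated AsPC-1 and 323, 3596 and 1858 after PMA, with both passage 8 arrays lowest. ATF4 itself had 1839, 1536 and 1439 untreated and 1404, 4925 and 5499.8 after PMA, so that passage 8 was not low before treatment and passages 10 and 12 were far above it after PMA.

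In response to PMA, 2 of the 29 amino acid response genes rose and 0 fell in BxPC-3. ATF4 had 1386, 1592 and 1476 untreated and 4097, 3924 and 3689 after PMA in this line, a change of 1.39 ± 0.36 (SE, adjusted p = 0.0408). CHAC1, which breaks down glutathione and is an ATF4 target, rose by 1.83 ± 0.43 (SE, adjusted p = 0.0231). In AsPC-1, 2 rose and 0 fell: CEBPB, a transcription factor that ATF4 can pair with, by 2.07 ± 0.32 (SE, adjusted p = 0.00726) and the mTORC1 inhibitor DDIT4 by 2.25 ± 0.50 (SE, adjusted p = 0.0386). The values of ATF4 and CHAC1 in AsPC-1 were 1.07 ± 0.36 (SE, adjusted p = 0.156) and 1.38 ± 0.43 (SE, adjusted p = 0.122). DDIT4 went the other way in BxPC-3, with 936, 1071 and 1432 untreated and 697, 672 and 734 after PMA. CEBPB had 1599, 1586 and 1833 untreated and 2836, 2123 and 2592 after PMA in BxPC-3, and neither gene passed there. The median change of the list was 0.17 in BxPC-3 and 0.27 in AsPC-1. Without the AsPC-1 PMA array of passage 8, 6 rose and 3 fell in BxPC-3 and 9 rose and 2 fell in AsPC-1. In that fit 14.9% of all genes passed in BxPC-3 and 19.5% in AsPC-1. ATF4 was among the listed genes that rose in both lines. DDIT4 was then among those that fell in BxPC-3 and those that rose in AsPC-1. These counts and those of the lists that follow stand beside the share of all genes given above for each comparison, and in BxPC-3 beside the difference in ACTB 3'/5' ratio.

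Among 21 other amino acid and peptide transporters, outside the families above, 2 fell in BxPC-3 and 0 passed in AsPC-1 (limma, 2 at an unadjusted p under 0.05). Of all genes, 3.3% fell in BxPC-3, and 2657 of 16099 had an unadjusted p under 0.05 in AsPC-1. The lysosomal peptide and histidine carrier SLC15A4 had 252, 233 and 343 in untreated BxPC-3 and 151, 144 and 147 after PMA, a change of -0.87 ± 0.20 (SE, adjusted p = 0.023). The mitochondrial aspartate and glutamate carrier SLC25A12 had a change of -1.37 ± 0.33 (SE, adjusted p = 0.0264), with 179, 154 and 181 untreated and 65.5, 68.4 and 59.3 after PMA. In AsPC-1 the values with the smallest adjusted p were -0.60 ± 0.21 (SE, adjusted p = 0.163) for the mitochondrial glycine carrier SLC25A38 and -0.72 ± 0.33 (SE, adjusted p = 0.294) for SLC25A12. The median change of the list was -0.12 in BxPC-3 and 0.04 in AsPC-1. Without the passage 8 PMA array, 4 fell in BxPC-3 and 2 in AsPC-1, and 0 rose in either. Of all 16099 genes, 1477 fell in BxPC-3 and 2166 in AsPC-1 in that fit.

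Among 23 enzymes of glutamine, glutathione and the urea cycle, 2 rose in BxPC-3 and 0 passed in AsPC-1 (limma, 4 at an unadjusted p under 0.05). Of all genes, 2.52% rose in BxPC-3, and 2657 of 16099 had an unadjusted p under 0.05 in AsPC-1. ASS1, which makes the precursor of arginine, had 310.5, 349 and 458 in untreated BxPC-3 and 909.6, 1258 and 848 after PMA, a change of 1.42 ± 0.23 (SE, adjusted p = 0.00326). ARG2, the mitochondrial arginase, rose by 1.33 ± 0.35 (SE, adjusted p = 0.0429). In AsPC-1 ARG2 just missed the threshold, at 1.48 ± 0.35 (SE, adjusted p = 0.05), and PPAT, which uses glutamine for purine synthesis, was at -1.05 ± 0.26 (SE, adjusted p = 0.0622). Their list had a median change of -0.01 in BxPC-3 and 0.04 in AsPC-1. Without the passage 8 PMA array, 2 rose and 0 fell in BxPC-3, and 4 rose and 1 fell in AsPC-1. In that fit 14.9% of all genes passed in BxPC-3 and 19.5% in AsPC-1.

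Of 32 genes through which mTORC1 senses amino acids, 4 fell and 0 rose in BxPC-3, while 0 passed in AsPC-1 (limma, 5 at an unadjusted p under 0.05). Of all genes, 3.3% fell in BxPC-3, and 2657 of 16099 had an unadjusted p under 0.05 in AsPC-1. ITFG2, a part of the KICSTOR complex that holds an mTORC1 inhibitor at the lysosome, had 122, 89.8 and 116 in untreated BxPC-3 and 44, 28.8 and 43.4 after PMA, a change of -1.44 ± 0.30 (SE, adjusted p = 0.0145). SESN1, a leucine-binding inhibitor of mTORC1, had 99.8, 145 and 122 untreated and 49.1, 64 and 39.6 after PMA, a change of -1.23 ± 0.27 (SE, adjusted p = 0.0175). In AsPC-1 KICS2, also of KICSTOR, had -0.78 ± 0.23 (SE, adjusted p = 0.116) and ITFG2 -0.74 ± 0.30 (SE, adjusted p = 0.237). In BxPC-3 the change was -0.95 ± 0.23 (SE, adjusted p = 0.0315) for KICS2 and -0.67 ± 0.18 (SE, adjusted p = 0.0423) for the mTORC1 activator RRAGC. SLC38A9, described above, also acts at the lysosome and fell in BxPC-3, a call lost in 12 of 24 alternative settings. Whether these falls are linked was not tested. The median change of the list was -0.15 in BxPC-3 and -0.18 in AsPC-1. Without the passage 8 PMA array, 1 rose and 5 fell in BxPC-3, and 2 rose and 7 fell in AsPC-1. Of all 16099 genes in that fit, 917 rose and 1477 fell in BxPC-3, and 981 rose and 2166 fell in AsPC-1.

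The remaining 31 tested transporter genes passed in none of the 5 comparisons. Besides those named, they were SLC1A2, SLC1A7, SLC36A1, SLC38A7, SLC38A12, SLC3A1, SLC43A2, SLC6A2, SLC6A3, SLC6A4, SLC6A9, SLC6A11, SLC6A12, SLC6A16, SLC6A19, SLC7A2, SLC7A3, SLC7A4, SLC7A14, SLC7A6OS and 4 antisense genes.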

How the data were processed

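Signal intensity was used as the authors deposited it, on a linear scale in 1 table of 54675 probe sets and 12 arrays, and per the submitters' processing notes it came from MAS5, with no version named. Each array had a trimmed mean near 100.02, so they share a scale. Precision is limited by how many arrays there are, and detection calls were not used here. Of the probe sets, 62 controls were left out, 41091 had 1 symbol, 1801 several and 11721 none. Per gene, the single-symbol probe set with the highest mean log2(signal + 3) was used (39 of the transporter genes have several). Lower limits of line differences are means of log2 signal after signals under the 40th percentile of their array were raised to it, a step added after seeing the data. An s or x in a probe set's name means that it can also hit related (s) or unrelated (x) transcripts.

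The fit was made in R 4.3.3 with limma 3.58.1 over the 12 arrays: lmFit on group means, then eBayes with its trend option, leaving 8 residual degrees of freedom. Tests were two-sided and adjusted by Benjamini-Hochberg over 16099 genes. With 3 arrays a group, the smallest p of an exact test is 0.1. The fit was tested on simulated data. The labels give the same passage to the treated and the untreated array of a number, which pairs them within a line. Their deviations from the group means had correlations of 0.411, 0.206 and 0.157 for the AsPC-1 pairs, and of -0.0539, -0.126 and -0.0589 for the BxPC-3 pairs. Plots were made in Python 3.11.15 using matplotlib 3.10.9.

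The transporter genes, the 4 other gene lists and the rules were chosen with earlier results of these data known. Values are given for genes past the threshold for PMA or the difference of responses, the 10 largest called line differences, the largest change of each AsPC-1 passage, 10 genes fixed by name (SLC7A11, SLC3A2, SLC7A5, SLC7A1, SLC1A5, SLC38A2, SLC1A4, SLC7A8, SLC6A14 and SLC43A1), and the 2 smallest adjusted p-values of each other list per PMA comparison. Any further gene given with values (such as SLC7A6, SLC6A8, SLC7A9, SLC38A10, ASNS and RRAGC) was named after its values were seen. As alternatives, the scaling, pseudocount, filter, probe set summary and trend were varied, and fits were made to a comparison's own arrays, with the passage block, with a 2-fold minimum and without single arrays.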

Additional observations from a re-analysis of the deposited data

How the results depend on the processing

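Between the lines, 15 to 24 transporter genes passed untreated and 14 to 21 after PMA over all alternatives. These counts stand without the share of all genes in each setting, and some of the genes had passed the filter through a single line. The named line differences kept their sign, except SLC6A13 untreated on unmarked probe sets (-0.70). Counts for PMA moved with most settings. For BxPC-3, where 2 genes passed, the count was 0 with quantile normalization, median centring, no filter, no intensity trend or a 2-fold minimum, 1 with the mean of probe sets or unmarked probe sets, and 11 with the arrays of the comparison alone. For AsPC-1, also 2, it was 0 with quantile normalization, no filter, the mean of probe sets, unmarked probe sets, no intensity trend, the arrays of the comparison alone or a 2-fold minimum. Leaving out 1 array gave 0 to 6 in BxPC-3, 0 to 9 in AsPC-1 and 0 to 3 for the difference of responses. The highest counts came without AsPC-1 PMA replicate 1, where 14.9%, 19.5% and 4.43% of all genes passed. Leaving out both passage 8 arrays gave 10, 10 and 4, where 23.4%, 21.4% and 7.37% of all genes passed. Where no share of all genes stands beside a count, it is not read as a result about the transporter genes. The arrays alone give no difference of responses. The causes were not tested.

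With the passage as a replicate block the counts were 5 in BxPC-3 and 4 in AsPC-1. The block changed no other count by over 1.5 times (20 untreated and 17 after PMA between lines, with the passage as a random effect at a consensus correlation of 0.163, and 0 for the difference).

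The calls of SLC38A1 were lost in 15 (BxPC-3) and 16 (AsPC-1) of 24 alternatives, that of SLC38A2 in AsPC-1 in 16, and that of SLC38A9 in BxPC-3 in 12; the sign held in each. Of 1079 values of single genes, 978 kept sign and side of the threshold, 64 lost and 24 gained a call, and 13 changed sign, none of them a PMA call. With the mean of probe sets these were SLC1A4 in BxPC-3 (0.31), SLC7A8 in AsPC-1 (-0.051) and SLC6A13 in AsPC-1 (-0.0408). With unmarked probe sets the PMA changes were 1.15 in BxPC-3 and -0.30 in AsPC-1 for SLC1A4, -0.41 in BxPC-3 for SLC7A8 and -0.93 in AsPC-1 for SLC6A13. Leaving out each array in turn gave -0.17 to 0.52 for SLC1A4 in AsPC-1 (lowest without untreated replicate 1), -0.14 to 0.25 for SLC1A5 in AsPC-1 (below 0 without untreated replicate 3 and, at -0.032, without PMA replicate 2) and -0.015 to 0.14 for SLC6A14 in BxPC-3 (lowest without PMA replicate 3). Without both passage 8 arrays SLC38A3 in AsPC-1 was at 0.40.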
